A study of Mus musculus with 20 samples.

Results

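The 10 genes described here encode organic anion and urate transporters of the kidney: Slc22a6, Slc22a7, Slc22a8, Slc22a12, Slco1a6, Slco4c1, Abcc4, Abcg2, Slc17a1 and Slc17a3. They were taken by gene symbol from the kidney count table, and all 10 were found among its 55486 genes. RNA came from C57BL/6 mice, 10 weeks old at entry, which received oxaliplatin, a platinum chemotherapy drug, by intraperitoneal injection (10 mg/kg, dissolved in 5% dextrose), or the 5% dextrose as vehicle, over 8 weeks. No genotype or transgene was given for any group. Kidney and bone marrow were each sequenced in 5 vehicle and 5 oxaliplatin mice, labelled as biological replicates, which gave 20 libraries. The methods name both sexes, the labels give none, and the methods describe the collection of marrow but not of kidney. The comparison asks how the transporter RNA differed between treated and vehicle kidneys, and marrow serves as the second tissue.

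The proximal tubule moves organic anions (drugs, toxins, conjugated metabolites and urate) from blood to urine in successive steps. Exchangers of the basolateral membrane take anions up from blood against dicarboxylates, and transporters and ATP-driven pumps of the apical membrane pass them into the tubule fluid. Urate is also recovered from the fluid by an apical exchanger. Many of these genes are known to differ between male and female rodents.

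Total counts ranged from 24393007 to 30925430 per kidney library and from 30660153 to 41140527 per marrow library. Values are CPM, read counts relative to library size, after TMM scaling, an edgeR method that corrects the library sizes for differences in composition. A detection floor of 3 raw counts corresponded to between 0.0900 and 0.130 CPM in kidney, which covers counting error only. In every kidney library 4 Y-linked genes were detected, with 396 to 1097 counts each, and Xist had 0 to 19 counts, the pattern of male tissue. In the marrow libraries the same 4 genes had 752 to 2460 counts each and Xist 28 to 100. None of the 20 proximal tubule markers was without counts in kidney, and their summed level was 40188 to 44433 CPM with vehicle and 28138 to 34510 CPM with oxaliplatin. In the first principal component of the kidney libraries the groups stood apart, and oxaliplatin mice 1 and 5 were low for 7 of the transporters, as described below.

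Most of the transporter RNA was lower in the kidneys of oxaliplatin-treated mice, and the efflux pump Abcc4 was higher. A gene was called where the adjusted p was under 0.05 and the fold change beyond 1.5 in edgeR's quasi-likelihood test. By this rule 7 of the 10 genes were called, against 11.5% of the 19293 genes tested. The 10 genes and the gene lists below were chosen with earlier results of these data known, so counts over them are a description. Lower calls were made for 6 (background 3.81%), namely Slc22a6, Slc22a7, Slc22a12, Slco1a6, Slc17a1 and Slc17a3, and a higher call for 1 (background 7.68%), Abcc4. With no fold threshold, 8 of the 10 had an adjusted p under 0.05 (background 29.4%), 1 higher (background 14.4%) and 7 lower (background 15.0%). The median log2 fold change of the 10 was -0.90, against 0.025 over all genes tested. Oxaliplatin and vehicle mice did not overlap in 8 genes (background 20.7%), of which 7 were lower (background 11.0%) and 1 was higher (background 9.69%). Scaling by library size alone moved the median of all tested genes to 0.158 and higher genes from 66.8% to 82.7% of all calls, while 7 transporters were again called, 6 lower and 1 higher. In whole kidney tissue, fewer cells of a type and less RNA per cell cannot be told apart.

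**Figure D1:**
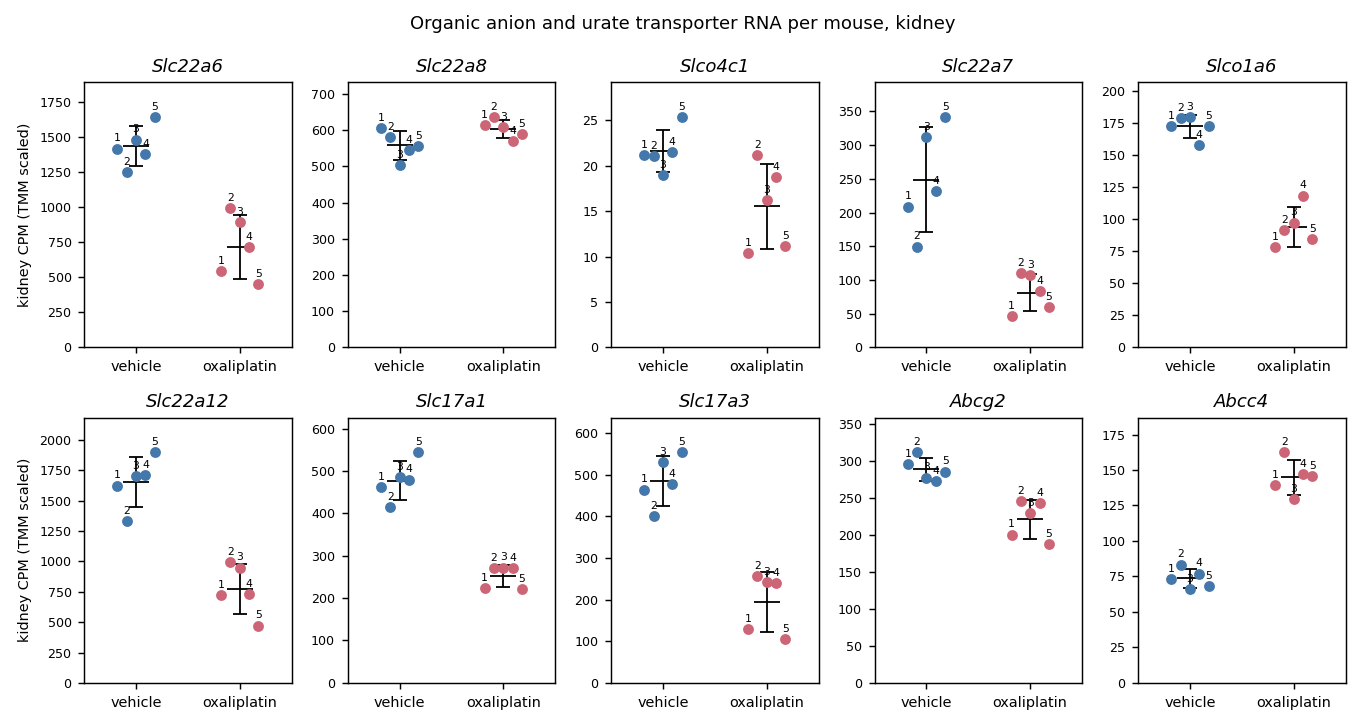
Kidney RNA level (vertical axis, TMM-scaled CPM from 0, a separate scale for each gene) of the 10 transporters in each vehicle and oxaliplatin mouse (numbered points), with the mean and SD of 5 mice as black bars. Every oxaliplatin mouse lies below every vehicle mouse for 7 genes and above every vehicle mouse for Abcc4, and the groups overlap for Slc22a8 and Slco4c1.

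The basolateral uptake carriers did not move together. Slc22a6 (ENSMUSG00000024650, GRCm38 chr19:8618039-8628299, plus strand), which encodes OAT1, exchanges blood anions against dicarboxylates. It stood at 1415, 1248, 1479, 1378 and 1641 CPM in vehicle mice 1 to 5, and at 546, 994, 890, 713 and 448 CPM in oxaliplatin mice 1 to 5. All treated mice were below all vehicle mice, and mice 1 and 5 were the lowest. The mean fell from 1432 ± 144 to 718 ± 228 CPM (SD, n = 5), a log2 fold change of -0.996 (SE 0.20, adjusted p = 0.00437, edgeR).

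Slc22a8 (ENSMUSG00000063796, GRCm38 chr19:8591254-8611835, plus strand) encodes OAT3, the other basolateral organic anion exchanger. Vehicle mice 1 to 5 had 607, 581, 503, 544 and 556 CPM, and oxaliplatin mice had 614, 637, 608, 569 and 589 CPM. The groups overlapped, although 3 treated mice were above every vehicle mouse. The means were 558 ± 39.1 and 603 ± 25.5 CPM (SD, n = 5), and the difference did not pass the threshold (log2 fold change 0.11, SE 0.069, adjusted p = 0.230, edgeR). Under library size alone it was 0.24 with an adjusted p of 0.00762, still below the 1.5-fold limit.

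Slc22a6 and Slc22a8 lie on the same strand of chromosome 19, with 6203 bases between them. The ratio of the neighbours, each divided by its exon length, was taken in each mouse to compare them on the same scale. Slc22a6 per kilobase was 2.53 ± 0.353 times Slc22a8 in vehicle mice (SD, n = 5, range 2.11 to 2.90). In oxaliplatin mice the ratio was 1.16 ± 0.344 (range 0.747 to 1.53). The ranges did not overlap, and in mice 1 and 5 the ratio was below 1.

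**Figure D2:**
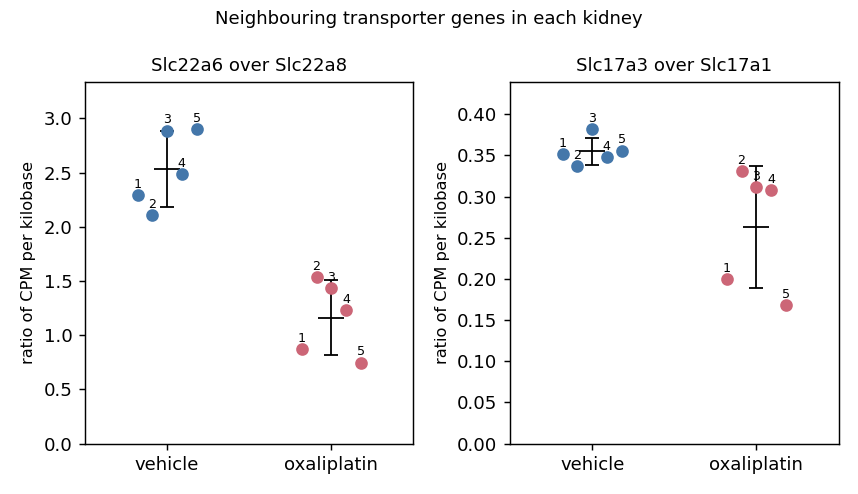
Ratio of CPM per kilobase (vertical axes from 0) of Slc22a6 over Slc22a8 and of Slc17a3 over Slc17a1 in each kidney, numbered by mouse, with the mean and SD of 5 mice as black bars. Both ratios are lower in every oxaliplatin mouse than in every vehicle mouse, and mice 1 and 5 are the lowest in both.

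Slco4c1 (ENSMUSG00000040693, GRCm38 chr1:96816270-96872171, minus strand) encodes OATP4C1, a basolateral carrier of cardiac glycosides and uremic solutes. It was the least abundant of the 10 per kilobase. Vehicle mice had 21.2, 21.0, 19.0, 21.5 and 25.4 CPM, and oxaliplatin mice 1 to 5 had 10.4, 21.2, 16.3, 18.7 and 11.1 CPM. Of the treated mice 4 were below all vehicle mice, and mouse 2 lay within them. The log2 fold change of -0.48 (SE 0.18) did not pass the threshold (adjusted p = 0.0645, edgeR). The gene was called without oxaliplatin mouse 2 (-0.62, adjusted p = 0.00980), and DESeq2 gave an adjusted p of 0.0210, while without mice 1 and 5 together the value was -0.20 (adjusted p = 0.220).

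Of the other uptake carriers, both were called lower. Slc22a7 (ENSMUSG00000067144, GRCm38 chr17:46432183-46438457, minus strand) encodes OAT2, an organic anion carrier. Vehicle mice 1 to 5 had 209, 149, 311, 232 and 342 CPM, and oxaliplatin mice had 46.9, 110, 107, 83.3 and 60.0 CPM. It varied most among vehicle mice of the 10 genes, with a coefficient of variation of 31.3%, and the groups still did not overlap. Its log2 fold change of -1.61 (SE 0.31, adjusted p = 0.00521, edgeR) was the largest of the 10, and the treated mean was 32.7% of the vehicle mean.

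Slco1a6 (ENSMUSG00000079262, GRCm38 chr6:142085761-142208521, minus strand) encodes OATP1A6, a kidney member of the OATP family of organic anion carriers. Vehicle mice had 173, 179, 180, 158 and 173 CPM, and oxaliplatin mice 1 to 5 had 78.1, 91.7, 97.5, 118 and 84.6 CPM. Its vehicle values were the closest together of the 10 genes, with a coefficient of variation of 5.16%, and every treated mouse was lower. The log2 fold change was -0.87 (SE 0.092, adjusted p = 5.7e-06, edgeR), which left 54.5% of the vehicle mean.

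Slc22a12 (ENSMUSG00000061742, GRCm38 chr19:6535845-6543032, minus strand) encodes URAT1, the apical exchanger that recovers urate from the tubule fluid. It was the most abundant of the 10 per kilobase in both groups. Vehicle mice 1 to 5 had 1625, 1330, 1705, 1714 and 1899 CPM, and oxaliplatin mice had 720, 992, 949, 730 and 472 CPM. Every treated mouse was lower, and mouse 5 was the lowest. The log2 fold change was -1.10 (SE 0.18, adjusted p = 0.00105, edgeR). The gene shares 682 exon bases with Nrxn2 on the opposite strand, which had 247 to 349 counts in kidney against 15719 to 46879 for Slc22a12, and whether counting used strand is not given in the sources used here.

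The apical exit transporters Slc17a1 and Slc17a3 were both called lower, Slc17a3 by more, and the ATP-driven pumps diverged. Slc17a1 (ENSMUSG00000021335, GRCm38 chr13:23867750-23895730, plus strand) encodes NPT1, an apical carrier of urate and other anions. Vehicle mice had 462, 416, 486, 480 and 544 CPM, and oxaliplatin mice 1 to 5 had 224, 271, 272, 271 and 221 CPM. The treated mice were all lower and close together. The log2 fold change was -0.92 (SE 0.086, adjusted p = 1.4e-06, edgeR).

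Slc17a3 (ENSMUSG00000036083, GRCm38 chr13:23839434-23860716, plus strand) encodes NPT4, a urate and drug exit carrier, and ends 7033 bases before Slc17a1. Vehicle mice had 464, 401, 530, 478 and 553 CPM, and oxaliplatin mice 1 to 5 had 128, 256, 242, 239 and 106 CPM. All treated mice were lower, with mice 1 and 5 well below the other treated mice. The log2 fold change was -1.32 (SE 0.26, adjusted p = 0.00542, edgeR). Per kilobase, Slc17a3 was 0.355 ± 0.0163 of Slc17a1 with vehicle (SD, n = 5, range 0.338 to 0.382). With oxaliplatin the ratio was 0.264 ± 0.0740 (range 0.168 to 0.331), with 0.200 and 0.168 in mice 1 and 5. The ranges did not overlap, by a narrow margin. The level of this ratio depends on the exon lengths used, 6777 bases for Slc17a3 and 2372 for Slc17a1. Before division by length, the vehicle means were 485 and 478 CPM.

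Abcg2 (ENSMUSG00000029802, GRCm38 chr6:58584523-58695676, plus strand) encodes BCRP, an ATP-driven apical pump that exports urate and many drugs. Vehicle mice 1 to 5 had 296, 312, 278, 273 and 286 CPM, and oxaliplatin mice had 200, 246, 229, 243 and 187 CPM. All treated mice were lower. The adjusted p was 0.00171 (edgeR), but the log2 fold change of -0.38 (SE 0.080) did not reach 1.5-fold, so the gene was not called.

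Abcc4 (ENSMUSG00000032849, GRCm38 chr14:118482692-118706219, minus strand) encodes MRP4, an ATP-driven apical pump of organic anions, urate and cyclic nucleotides. Vehicle mice 1 to 5 had 73.3, 83.3, 66.2, 77.0 and 68.3 CPM, and oxaliplatin mice had 139, 162, 130, 147 and 146 CPM. Every treated mouse was above every vehicle mouse, and mice 1 and 5 lay among the others. The mean rose from 73.6 ± 6.85 to 145 ± 12.1 CPM (SD, n = 5), a log2 fold change of 0.98 (SE 0.077, adjusted p = 2.0e-07, edgeR). As the 1 gene that rose, the sequence just before the outer of its 2 RefSeq starts is shown, from RefSeq sequence of GRCm38.p6, minus strand, chr14:118706220-118706369, with a match to the antioxidant response element TGACNNNGC, read on the opposite strand, in capitals.
Abcc4: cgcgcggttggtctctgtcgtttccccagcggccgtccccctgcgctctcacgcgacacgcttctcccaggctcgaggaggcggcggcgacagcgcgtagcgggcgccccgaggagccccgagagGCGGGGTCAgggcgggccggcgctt
The match begins 25 bases before that start and overlaps no other motif searched. The motif was searched on both strands of windows from 250 bases before to 50 bases after each RefSeq start, and 12.4% of 32851 such windows held it. Windows were found for 9 of the 10 genes, and 3 of the 13 windows held it, both of Abcc4 and that of Slco4c1, which was not called. In the other Abcc4 window it begins 23 bases before the start. Further motifs were searched in the same windows. The androgen response half-site AGAACA, held by 19.0% of windows, was found in the other Abcc4 window, 123 bases before the start. It was also found in windows of Slc17a1 and Slco4c1. Whether any of these motifs acts on the genes was not tested.

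Levels per kilobase used the merged exons of all annotated transcripts of a gene, so the order of genes depends on those lengths. Per kilobase of exon, vehicle kidneys carried the most Slc22a12 (731 ± 91.6 CPM per kilobase, SD, n = 5), then Slc22a6 (360 ± 36.2) and Slc17a1 (201 ± 19.5). Slc22a8 (143 ± 10.0), Slc22a7 (118 ± 37.1) and Slc17a3 (71.6 ± 8.81) followed, and Slc22a7 overlapped both of its neighbours in the order. Slco1a6 (45.3 ± 2.34), Abcg2 (35.4 ± 1.91), Abcc4 (11.5 ± 1.07) and Slco4c1 (4.40 ± 0.474) came last, with no overlap between them. In oxaliplatin kidneys Slc22a12 (341 ± 92.3) and Slc22a6 (180 ± 57.3) were still first, but their ranges overlapped, and that of Slc22a6 also overlapped Slc22a8 (154 ± 6.53). Slc22a8 stood above Slc17a1 (106 ± 11.3) there, whereas with vehicle it stood below. Abcc4 rose to 22.7 ± 1.89 CPM per kilobase, a level that overlapped Slco1a6 (24.7 ± 4.06).

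Oxaliplatin mice 1 and 5 were the lowest 2 treated mice for 8 of the 10 genes, and for all 7 that were lower without overlap. The same mice were lowest for a list of 8 genes that are higher in male mouse kidney, with sums of 1483 and 925 CPM, against 3939 to 4828 CPM in the other treated mice and 9502 to 12792 CPM with vehicle. Of that list 7 genes were called lower (background 3.81%). Mice 1 and 5 were highest for 4 genes that are higher in female mouse kidney, all called higher (background 7.68%). Sums of these 4 were 661 and 760 CPM there, 131 to 294 CPM in the other treated mice and 13.3 to 68.3 CPM with vehicle. Both lists were chosen with earlier results of these data known, so their counts are a description. Slco1a1, Slc22a30, Slc22a29 and Prlr stand in these lists and among the transporters and regulators below. Hemoglobin transcripts summed to 44.7 and 43.4 CPM in mice 1 and 5, 219 to 689 CPM in the other treated mice and 250 to 417 CPM with vehicle. Without mice 1 and 5, an alternative chosen after seeing the data, the same count of 7 transporters was called (6 lower, 1 higher), in a fit that called 1520 of 19904 genes (1026 higher, 494 lower). Log2 fold changes were then -0.72 for Slc22a6, -1.31 for Slc22a7, -0.88 for Slc22a12, -0.97 for Slc17a3 and 1.00 for Abcc4. The part of the sex-dependent genes and of blood in the transporter levels was not tested.

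**Figure D3:**
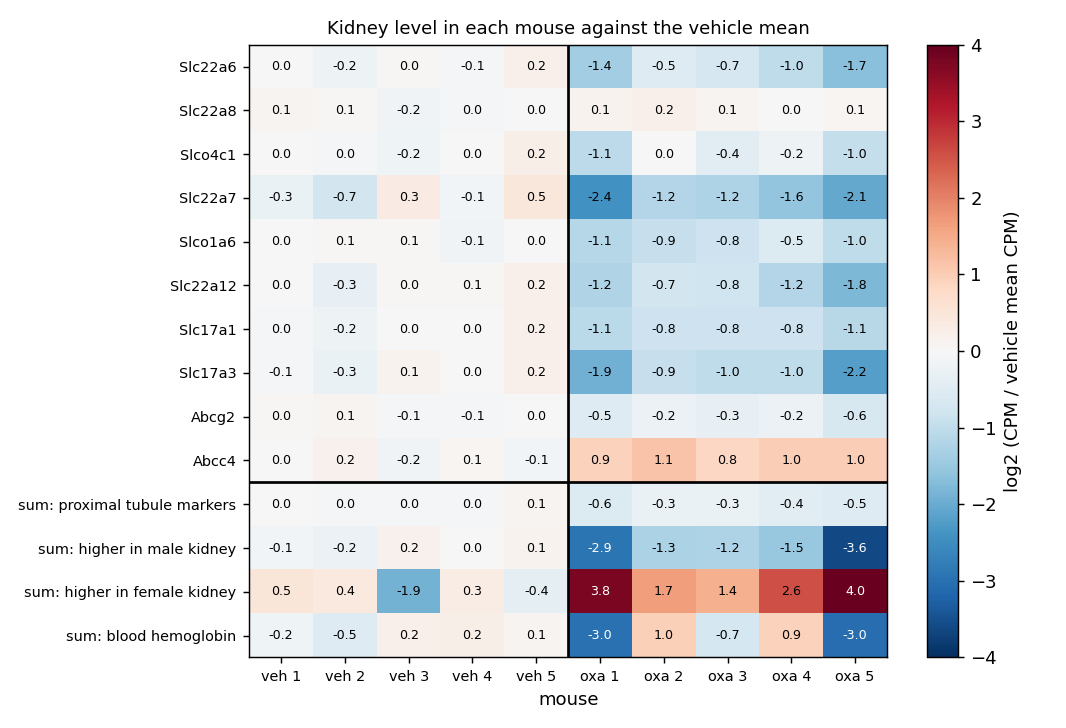
Kidney level in each mouse as log2 of CPM over the vehicle mean (colour and printed value) for the 10 transporters and, below the black line, for the summed CPM of 4 gene lists, with vehicle mice on the left and oxaliplatin mice on the right. Mice 1 and 5 of the oxaliplatin group have the lowest values for Slc22a7, Slc17a3, the male-kidney list and hemoglobin, and Abcc4 is above the vehicle mean in all treated mice.

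Against the mean log2 level of 20 proximal tubule markers, the transporters kept their directions. The mean log2 CPM of the 20 proximal tubule markers was subtracted from each transporter in each mouse. The difference changed by -1.40 for Slc22a7, -1.18 for Slc17a3, -0.91 for Slc22a12, -0.82 for Slc22a6, -0.70 for Slc17a1, -0.66 for Slco1a6 and -0.16 for Abcg2, and in each of these the treated mice were all lower. It changed by 1.20 for Abcc4 and 0.34 for Slc22a8, with every treated mouse higher. For Slco4c1 it changed by -0.30 and the groups overlapped. This mean counts each marker equally. The summed level of the markers was 40188 to 44433 CPM with vehicle and 28138 to 34510 CPM with oxaliplatin. Differences from that sum were not taken, so small changes such as that of Abcg2 depend on the reference used. Of the 20 markers 5 were called lower (background 3.81%) and 1 higher (background 7.68%), with a median log2 fold change of -0.11. With no fold threshold, 8 were lower at an adjusted p under 0.05 (background 15.0%) and 6 were higher (background 14.4%). Of 9 tubular injury markers 8 were tested and 2 were called higher, and their sum was 660 to 729 CPM with vehicle and 844 to 956 CPM with oxaliplatin. Podocyte markers (4 of 5) and stromal markers (4 of 5) were also called higher. The part of tissue composition in the transporter levels was not tested.

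Around the 10 genes, a wider list of 69 transporters and regulators was described by counts. The table held 68, of which 61 were tested and 17 were called (background 11.5%), 6 higher (background 7.68%) and 11 lower (background 3.81%), with a median log2 fold change of -0.036. Among other SLC22 anion transporters 8 were tested. Slc22a30, Slc22a28 and Slc22a22 were called lower, and Slc22a29 was called higher (log2 fold change 1.60, adjusted p = 0.000103, edgeR) from 2.65 ± 0.636 to 8.02 ± 2.48 CPM (SD, n = 5). Among other OATPs 7 were tested, and Slco1a1, a kidney and liver carrier, had the largest fall of the list, from 250 ± 26.6 to 20.2 ± 14.7 CPM (-3.63, SE 0.64, adjusted p = 0.00354, edgeR). Slco1a5 (-1.96) and Slco3a1 (-1.22) were also called lower. Of 6 other ABCC pumps tested, none was called lower and Abcc3, a basolateral pump, was called higher (1.83, adjusted p = 0.00446, edgeR), while Abcc2, the apical pump MRP2, was at 0.08 (adjusted p = 0.413).

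Organic cation carriers, which serve the parallel secretory route, were also on both sides. Slc22a2, the basolateral cation carrier OCT2, fell from 340 ± 29.7 to 180 ± 53.3 CPM (SD, n = 5, log2 fold change -0.92, adjusted p = 0.00516, edgeR). Slc47a1, the apical exporter MATE1, was called lower at -0.73, and the P-glycoprotein genes Abcb1b (1.81) and Abcb1a (0.68) were called higher. The urate list had 8 tested genes. Slc5a8, which takes up monocarboxylates, was called lower at -1.21, and Xdh, the enzyme that makes urate, was called higher at 0.60. Slc2a9, the basolateral urate exit carrier, was at -0.02 (adjusted p = 0.917).

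Slc13a3 imports the dicarboxylates that the basolateral exchangers trade for anions, and it was called lower (log2 fold change -0.59, SE 0.073, adjusted p = 2.4e-05, edgeR), from 1232 ± 93.0 to 820 ± 43.6 CPM (SD, n = 5). It was the 1 gene called among the 10 of the gradient and scaffold list (background 11.5%). Pdzk1, a scaffold that binds URAT1 and NPT1, had an adjusted p of 0.000290 at -0.50, short of 1.5-fold. Of 15 regulators 2 were called, a share near the background of 11.5%. Prlr, the prolactin receptor, was higher (2.46) and Esr1, estrogen receptor alpha, was lower (-0.80). Hnf4a, a nuclear receptor of the proximal tubule, was at -0.36 (adjusted p = 0.00207), short of 1.5-fold.

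**Figure D4:**
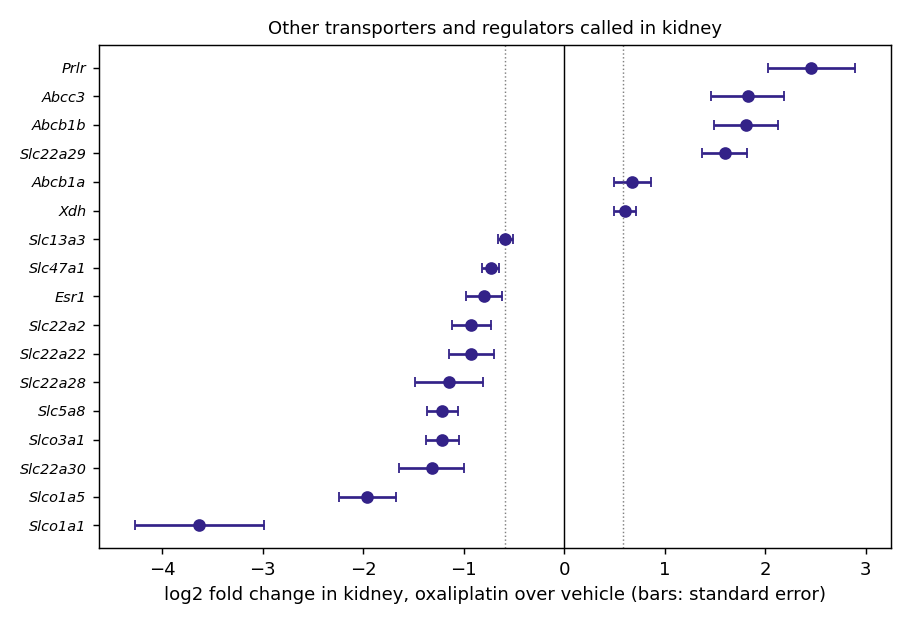
Log2 fold change of oxaliplatin over vehicle in kidney (horizontal axis, bars show the standard error, dotted lines mark 1.5-fold) for the 17 genes called among 61 tested transporters and regulators outside the 10. The 11 lower genes run from Slco1a1 at -3.63 to Slc13a3 at -0.59, and the 6 higher genes from Xdh at 0.60 to Prlr at 2.46.

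For each transporter the tested gene that varied most alike among the 10 kidneys was found, by Pearson's r of log2 CPM after each group's mean was subtracted. These values are a description over 10 mice, 1 library each, with both genes read from the same libraries, chosen as the highest of 19293. They were Aldh8a1 for Slc22a6 (r = 0.995), Cyb5a for Slc22a12 (0.994), Cyp7b1 for Slc17a3 (0.991), Dnajb11 for Slc22a7 (0.991) and Far1 for Slco1a6 (0.987). The others were Fut9 for Abcg2 (0.978), Dio1 for Slco4c1 (0.977), Nat8f3 for Slc17a1 (0.962), Tbc1d9b for Slc22a8 (0.959) and Gm25082 for Abcc4 (0.951). Cyp7b1 also stands in the male-kidney list.

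In bone marrow 4 of the 10 genes passed the filter on low counts, and 2 were called (background 23.3% of 22363 genes), both lower (background 11.8%). An adjusted p under 0.05 was reached by 3 of the 4 (background 33.1%), all lower (background 16.8%). Abcg2, also known from blood stem and erythroid cells, had 93.8, 107, 102, 104 and 75.7 CPM in vehicle mice 1 to 5, and 48.9, 53.1, 74.8, 47.6 and 39.3 CPM in oxaliplatin mice. Every treated mouse was lower (log2 fold change -0.88, SE 0.16, adjusted p = 0.00078, edgeR). Hemoglobin genes were 4 of 4 called lower in marrow, from sums of 24111 to 44127 CPM to 2535 to 8826 CPM, and the part of erythroid cells in Abcg2 was not tested. Slc22a12 was near the floor, with 15 to 28 counts in vehicle and 2 to 17 in oxaliplatin mice (-1.54, SE 0.48, adjusted p = 0.0241, edgeR). It passed the filter through its vehicle counts, the higher group, so its call among the 2 is given as a description. That call was lost without vehicle mouse 2 (adjusted p = 0.0643), vehicle mouse 4 (0.0548) or oxaliplatin mouse 5 (0.0516), and with a covariate of Y-linked genes (-1.28, adjusted p = 0.110). A filter of 10 counts in every library removed the gene. Nrxn2, which overlaps it, was called higher there (0.76).

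Abcc4 had 98.3 to 107 CPM in vehicle marrow and 82.7 to 91.9 CPM in oxaliplatin marrow. The groups did not overlap (-0.25, SE 0.071, adjusted p = 0.0141, edgeR), but the gene did not reach 1.5-fold, and under library size alone the adjusted p was 0.300. Slco4c1 ranged from 33.0 to 41.6 CPM with vehicle and from 11.1 to 62.5 CPM with oxaliplatin, so that the treated mice lay on both sides (-0.16, adjusted p = 0.785, edgeR). Its sign turned without oxaliplatin mouse 3 (0.069) or 4 (0.0061), and with a covariate of Y-linked genes the value was -0.99 (adjusted p = 0.0305).

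The other 6 genes were not tested in marrow. Slc22a6, Slc22a7 and Slc17a1 had 0 to 7 counts and Slc22a8 had 2 to 24. Slc17a3 had 1 to 5 counts in 9 mice and 78 in vehicle mouse 1. Slco1a6 had 4, 1, 2, 0 and 3 counts in vehicle mice 1 to 5 and 13, 12, 7, 13 and 24 counts in oxaliplatin mice. These Slco1a6 counts did not overlap but lay near the floor of 3. With no filter beyond 1 count it was tested and called higher (log2 fold change 2.5, SE 0.74, adjusted p = 0.0189, edgeR).

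The response was compared between tissues by the tissue by treatment test over all 20 libraries, which 30.1% of the 24321 genes tested passed. The test treated the libraries as independent, and the labels do not say whether kidney and marrow came from the same mice. Of the 4 transporters tested in both tissues, Abcc4 passed it. Abcc4 rose in kidney and was lower in marrow, a difference of 1.17 on the log2 scale (SE 0.11, adjusted p = 6.3e-08, edgeR). Slco1a6 entered that fit through its kidney counts alone, so its difference of -3.41 is given as a description. For Abcg2, lower in both tissues, the difference of 0.42 did not pass the threshold (adjusted p = 0.111).

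**Figure D5:**
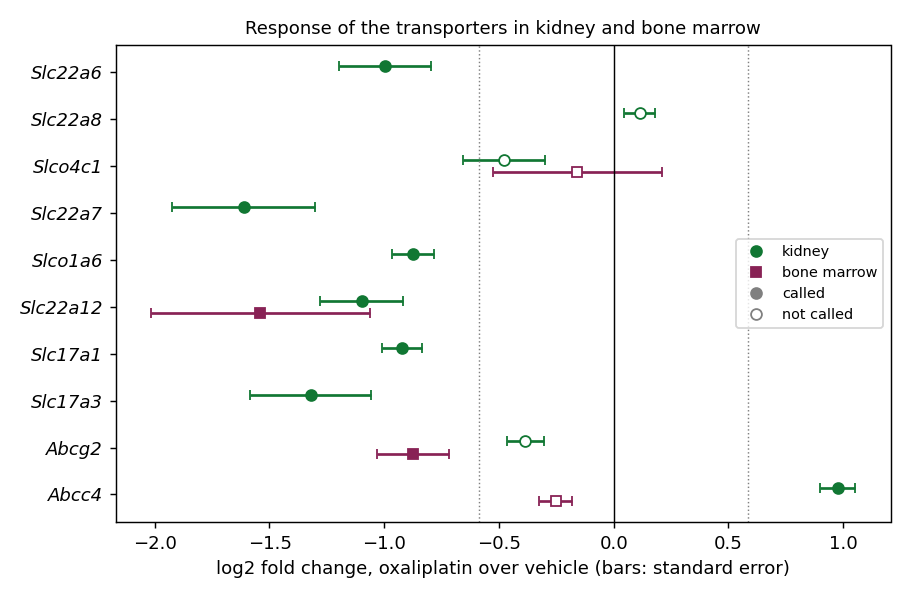
Log2 fold change of oxaliplatin over vehicle (horizontal axis, bars show the standard error, dotted lines mark 1.5-fold) in kidney (circles) for the 10 transporters and in bone marrow (squares) for the 4 that were tested there, filled where called. Abcc4 lies at 0.98 in kidney and -0.25 in marrow, whereas Abcg2 lies below 0 in both.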

How the data were processed

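The files the authors deposited hold raw counts of reads per gene in kidney and bone marrow, from STAR alignment to the mouse genome of Ensembl release 101 (GRCm38) and counting of unambiguous, uniquely aligned reads in Partek Flow. The submitters' processing notes also list featureCounts, Subread, Salmon and bcl2fastq. The methods name a SMARTer kit, the labels ribosomal RNA removal with random hexamers, and strand use is not given in the sources used here. From the 55774 lines of each table, 287 exact repeats of an identifier were removed, as was 1 incomplete line. Samples were grouped by their titles, and each library was labelled as a biological replicate.

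Tissues were fitted apart. Low genes were removed with filterByExpr (minimum count 10), and the rest were scaled by TMM and tested with edgeR 4.0.16 (R 4.3.3, limma 3.58.1), robust quasi-likelihood, two-sided, treatment as the only term, with Benjamini-Hochberg adjustment over all genes tested. Calls needed more than a 1.5-fold change with an adjusted p below 0.05. The tissue by treatment interaction was fitted over 20 libraries, treated as independent. Levels per kilobase used exon lengths of GENCODE mouse release 21, with the exons of all transcripts of a gene merged, and log2 CPM a prior count of 2. Depth is given with the results. No 2 libraries were alike within sampling noise (lowest chi-square per degree of freedom 6.83).

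The members and gene lists were chosen with earlier results of these data known. All 10 members are named, together with every called gene of the wider lists and, for each member, the gene that varied most alike. Alternatives were DESeq2 1.42.0, other scalings and filters, hemoglobin genes left out, a Y-linked covariate, a replicate block, other fold thresholds, and each mouse left out. The steps were tested on simulated data. Promoter sequences came from RefSeq (GRCm38.p6). Figures were drawn with matplotlib 3.10.9. Some results on regulators are not reported here.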

Additional observations from a re-analysis of the deposited data

Results flagged for a closer look

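The kidney response minus the marrow response differed by test for Abcc4 (1.17 on the log2 scale). For Slco1a6 the difference was -3.41, but the gene did not pass the marrow filter and entered the joint fit through kidney alone. Its marrow side rests on 0 to 4 counts with vehicle and 7 to 24 with oxaliplatin, so the value is a description. In 4 of 40 groups of 5 mice, a single mouse stood far from the others. Chance marks about 1 in 20 for continuous values, a rate that does not hold for tied low counts, as in Slc22a7 and Slc17a1 here. All 4 were in marrow. Slc17a3 reached 2.47 CPM (78 counts) in vehicle mouse 1 against at most 5 counts elsewhere. Slc22a7 reached 0.065 CPM in vehicle mouse 5 and 0.0576 CPM in oxaliplatin mouse 1, and Slc17a1 reached 0.0576 CPM in oxaliplatin mouse 1, each with 2 counts, below the floor of 3.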

How the results depend on the processing

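For single genes the threshold here was an adjusted p of 0.05 alone, whatever the fold change. Of 200 kidney fold changes of the 10 transporters under alternatives, 192 kept their direction and side of the threshold, 5 lost the threshold, 3 gained it and 0 turned. The 5 losses were all under the test against a 1.5-fold change. In marrow 63 of 75 kept direction and side, 9 lost the threshold and 1 gained it. The 2 that turned were Slco4c1 without oxaliplatin mouse 3 (0.069) or 4 (0.0061), in a range of -0.45 to 0.069 over the mice left out. A test against a 1.5-fold change called 454 kidney genes, 3 of the 10 transporters (Slco1a6, Slc17a1 and Abcc4) and 7 of the wider list, and 2730 marrow genes with 0 of the 4 transporters tested (edgeR, 2 at an unadjusted p under 0.05, while DESeq2 called 2 without that test). A fold change beyond 2 left 941 kidney genes, 3 transporters (all lower) and 10 of the wider list, and 3231 marrow genes with 1 transporter. That transporter was Slc22a12, which lay near the floor in marrow and passed the filter through its vehicle counts. With no fold threshold 5679 kidney genes and 34 of the wider list passed. With at least 10 counts in every library 1 transporter was called in marrow. Leaving out each mouse in turn gave 1761 to 2424 kidney genes, 7 to 8 transporters, 15 to 18 of the wider list, 4725 to 5727 marrow genes, 1 to 3 transporters in marrow (1 without oxaliplatin mouse 5) and 2 to 3 with a tissue difference, Slco1a6 counted. The third marrow call was Slco1a6, which passed the filter in 6 of these 10 marrow fits, through its oxaliplatin counts, and was not tested in the other 4. Replicate numbers did not pair the mice (correlations of deviations -0.154 to 0.0754 in kidney and -0.118 to 0.228 in marrow), and with the replicate block 2017 kidney genes, 7 transporters and 18 of the wider list were called, and 4968 marrow genes with 2 transporters. Y-linked genes were detected in every library, so a covariate of them does not adjust for sex. Their marrow sum was 156 to 173 CPM with vehicle and 99.1 to 165 CPM with oxaliplatin. This covariate gave -1.28 (adjusted p = 0.110, edgeR) for Slc22a12 and -0.99 (adjusted p = 0.0305) for Slco4c1 in marrow. The cause of these shifts was not tested. Depth limits the marrow values of 7 transporters, which lay at 28 counts or fewer in all but 1 library.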
